A study of Mus musculus with 12 samples.

Results

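The nuclear genes of the mitochondrial respiratory chain and ATP synthase were taken from a brain RNA-Seq table of Shank2-mutant mice treated early with memantine. Members were protein-coding genes whose values averaged 10 or more across the 12 mice and whose symbol begins with Ndufa, Ndufb, Ndufc, Ndufs or Ndufv, with Uqcr, with Cox4 to Cox8 or with Atp5. To these were added Sdha, Sdhb, Sdhc, Sdhd and Cyc1. The rule gave 91 of 19312 genes, with 46 in complex I, 4 in complex II, 9 in complex III, 15 in complex IV and 17 in complex V. Of these, 80 encode structural subunits and 11 were taken in by their symbol alone, namely the complex I assembly factors Ndufaf1 to Ndufaf8, Ndufa4l2, Cox7a2l and Atp5s. All 91 passed the filter of each main fit. Genes on the mitochondrial genome were not members.

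Each of 4 groups held 3 male C57BL/6N mice at postnatal day 25. WT-Veh and KO-Veh mice had received the saccharin vehicle and WT-Mem and KO-Mem mice had received 20 mg/kg of memantine in 0.1% saccharin, given orally 2 times daily between postnatal days 7 and 21. Memantine is an open-channel blocker of NMDA receptors, and KO mice were homozygous for a deletion of Shank2 exons 6 and 7. WT and KO pups shared cages with a mother, each library came from 1 mouse, and the labels name whole brain where the methods name forebrain without cerebellum and underlying brain stem.

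Complex I takes electrons from NADH and complex II takes them from succinate, as a part of the citric acid cycle. Both pass them through ubiquinone to complex III, from which cytochrome c carries them to complex IV, where oxygen is reduced. The proton gradient built on the way drives complex V, the ATP synthase. Neurons draw most of their ATP from this chain. Complex II is made wholly from nuclear genes, whereas the other complexes combine nuclear with mitochondrially encoded subunits, and many of the nuclear accessory subunits are very small proteins with short mRNAs.

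Shank2, the mutated scaffold gene, had values from 7156 to 8548 in the 6 WT mice and from 2706 to 3178 in the 6 KO mice, so the labels and the target gene agreed in every mouse. The deposited values are estimated gene counts that the authors divided by normalization factors, hereafter values, and they summed to between 30373849 and 31199251 per mouse. These sums are scaled to each other and are not depths. The median of the lowest values above 0, chosen to lie near 1 or below, was between 0.872 and 1.13 per mouse. That range is only a rough guide to the value of 1 read, since estimated counts can be fractional. All 6 forebrain markers were present in all 12 mice, and 1 of 5 cerebellar markers was listed at 0 in at least 1 mouse. All 5 cerebellar markers had higher values in KO-Veh than in WT-Veh mice and lower ones in KO-Mem than in KO-Veh mice, with medians of 1.18 and -0.92 (log2) and none at an unadjusted p under 0.05. Their summed value was 5643 in 1 KO-Veh mouse and lay between 3378 and 4189 in the others, and their part in the results was not tested. WT-Mem replicate 3 stood apart from the other mice for the members, and values without it are given beside the results it moved.

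The members were abundant and their levels spanned a wide range (plot of levels per kilobase). The median of their mean values was 2072, against 699 for the 14960 other protein-coding genes past the filter, and 68 of 91 members had a mean of at least 1000. Per kilobase of transcript, the highest levels were those of Cox8a (16968 per kb) and Cox4i1 (16651 per kb), which encode small subunits of cytochrome c oxidase, and of Atp5b (15006 per kb), the catalytic beta subunit of the ATP synthase. The highest of complex I was Ndufa4 (7402 per kb), whose product is now assigned to complex IV, that of complex II was Sdha (4025 per kb), the flavoprotein of succinate dehydrogenase, and that of complex III was Uqcrq (7285 per kb). The lowest of each complex were Ndufa4l2 (55.7 per kb), Sdhc (682 per kb), Uqcrb (1950.1 per kb), Cox4i2 (33.7 per kb) and Atp5s (189.5 per kb). Median levels per kb were 1657 in complex I, 2379 in complex II, 4002 in complex III, 4007 in complex IV and 4179 in complex V. A level per kb is uncertain where annotated transcripts differ in length, which they did by over 1.5 times for 5 members, Uqcrq and Atp5g1 among them. Ndufb4 had a mean of 325 while its processed pseudogene Ndufb4c had one of 1006, so the split of reads between both is uncertain.

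**Figure D1:**
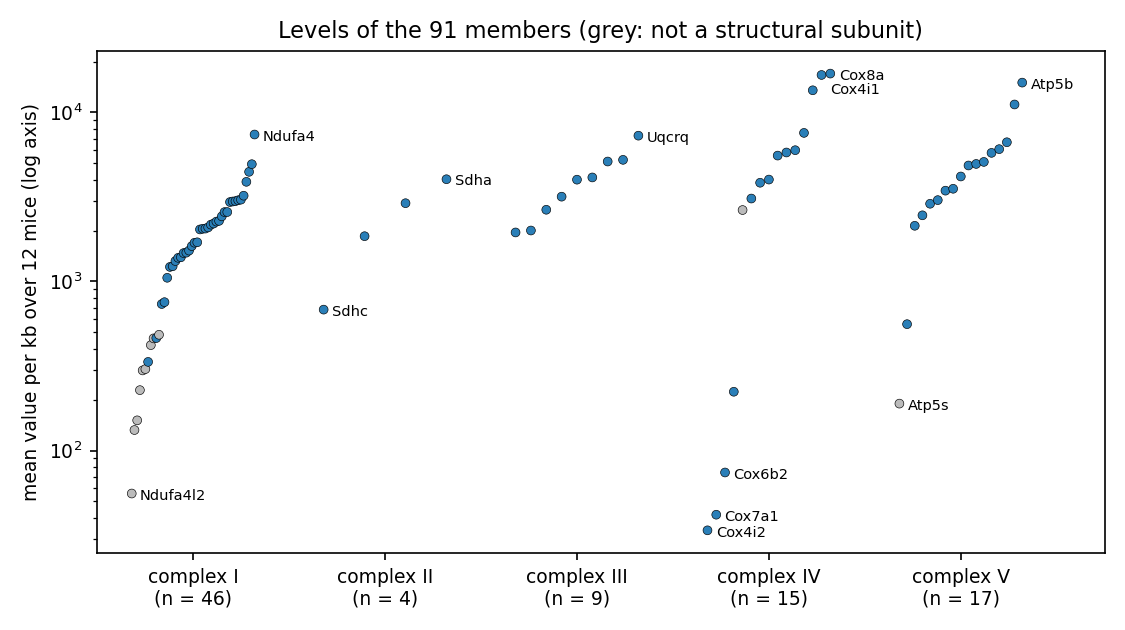
Mean value per kilobase of transcript over the 12 mice (log axis) for each of the 91 members, ordered by level within complexes I to V; blue points are structural subunits and grey points are members that are not. Most members lay above 1000 per kb, and Cox4i2, Cox7a1, Ndufa4l2 and Cox6b2 lay under 100 per kb.

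Isoforms of the same subunit differed widely in level. Cox4i1, the general isoform of subunit 4, was 493 times as high per kb as the lung and hypoxia isoform Cox4i2, and the ratio within a mouse ran from 285 to 923. Cox6a1 was 60.7 times as high as the muscle isoform Cox6a2 (49.97 to 78.0 within a mouse), Cox6b1 was 80.6 times as high as the testis isoform Cox6b2 (64.1 to 208), and Cox7a2 was 96.0 times as high as the muscle isoform Cox7a1 (51.1 to 240.1). Ndufa4 was 133 times as high as Ndufa4l2, a paralog known as a target of hypoxia signalling. The minor isoforms were rare, with means of 16.4 for Cox7a1, 24.5 for Cox4i2, 34.5 for Cox6b2 and 52.0 for Ndufa4l2. Of the 3 genes for the same c subunit of the ATP synthase rotor, Atp5g3 and Atp5g1 lay close together (ratio 1.16 per kb, 0.853 to 1.28 within a mouse), and Atp5g1 was 10.3 times as high as Atp5g2 (7.90 to 17.0). In every one of these pairs other than Atp5g3 and Atp5g1, the order was the same in all 12 mice. Cox8a was the one Cox8 gene among the members.

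Members shared short transcripts, a property the rule did not use. Their median transcript length was 809 bases, against 2909 bases for the other protein-coding genes, and 61.5% of members but 5.86% of the others were under 1000 bases. By complex the median was 921 bases in complex I, 2066 in complex II, 547 in complex III, 645 in complex IV and 809 in complex V. GC content was close to that of other genes (medians 51.7% and 50.8%). The members lie on 19 chromosomes with at most 8 on any of them.

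Motifs of factors known to drive respiratory genes stood in a larger share of the members' promoters than of other genes' promoters, though not in every complex. RefSeq promoters on GRCm38.p6, from 250 bases before to 50 bases after the annotated start, were at hand for 72 of 91 members, and the first listed promoter of each gene was searched on both strands. The letters GCGCANGCG, the core of the palindromic NRF1 motif, stood in 29.2% of them, against 12.5% of the promoters of 11615 other protein-coding genes past the filter. For CCGGAAG, the ETS core bound by GABP (NRF-2), the shares were 23.6% and 16.1%, and for ATGGCGGC, the core of the YY1 motif, 9.72% and 4.47%. At least 1 of the 3 stood in 37 of 72 members (51.4%) and in 28.9% of the others, at equal medians of 20 CpG per promoter. By complex these were 21 of 40, 3 of 3, 3 of 5, 3 of 11 (27.3%) and 7 of 13 promoters of complexes I to V. Complex IV was thus not above the other genes, with NRF1 letters in 1 of 11, and all 7 members with YY1 letters were of complex I. These are matches of letters, not shown sites. The 6 promoters printed here were picked among those with a motif, which capitals mark, and belong to genes described in the genotype comparisons. They are 5 of complexes I, III, IV and V with p-values among the smallest of their complex, and Sdhb of complex II. The promoters of Atp5d, Cox5a, Ndufc1, Ndufa1, Ndufaf2 and Cox7c held none of the 3 motifs, and their p-values were also among the smallest of their complex.
Ndufs5 promoter, chr4:123718137-123718436, minus strand, NRF1 letters 98 bases before the start: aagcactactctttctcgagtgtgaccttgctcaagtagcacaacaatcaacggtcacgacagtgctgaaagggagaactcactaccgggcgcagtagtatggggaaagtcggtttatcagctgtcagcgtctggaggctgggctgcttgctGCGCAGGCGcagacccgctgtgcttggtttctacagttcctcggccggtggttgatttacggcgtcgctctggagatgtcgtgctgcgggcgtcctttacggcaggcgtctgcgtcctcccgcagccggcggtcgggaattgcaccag
Ndufs8 promoter, chr19:3912725-3913024, minus strand, ETS letters 15 bases after the start: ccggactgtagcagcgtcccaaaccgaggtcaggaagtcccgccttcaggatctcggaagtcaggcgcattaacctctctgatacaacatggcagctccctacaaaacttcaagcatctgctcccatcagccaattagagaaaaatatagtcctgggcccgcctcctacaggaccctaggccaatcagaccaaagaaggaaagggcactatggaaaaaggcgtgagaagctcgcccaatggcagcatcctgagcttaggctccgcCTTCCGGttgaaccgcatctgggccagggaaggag
Sdhb promoter, chr4:140961021-140961320, plus strand, ETS letters 6 bases after the start: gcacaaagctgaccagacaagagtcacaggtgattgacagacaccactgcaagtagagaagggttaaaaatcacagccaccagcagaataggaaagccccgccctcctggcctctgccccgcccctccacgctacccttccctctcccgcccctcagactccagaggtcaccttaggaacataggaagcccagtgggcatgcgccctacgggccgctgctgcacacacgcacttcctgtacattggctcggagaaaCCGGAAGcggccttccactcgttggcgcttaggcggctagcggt
Uqcrh promoter, chr4:116075021-116075320, minus strand, ETS letters 10 bases before the start: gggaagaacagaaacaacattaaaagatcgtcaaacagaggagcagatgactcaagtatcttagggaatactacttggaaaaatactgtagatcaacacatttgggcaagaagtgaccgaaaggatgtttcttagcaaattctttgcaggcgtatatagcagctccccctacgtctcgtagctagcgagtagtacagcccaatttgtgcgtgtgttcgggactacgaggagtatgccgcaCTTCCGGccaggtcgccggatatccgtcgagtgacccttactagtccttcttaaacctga
Cox6b1 promoter, chr7:30626065-30626364, minus strand, ETS letters 28 bases before the start: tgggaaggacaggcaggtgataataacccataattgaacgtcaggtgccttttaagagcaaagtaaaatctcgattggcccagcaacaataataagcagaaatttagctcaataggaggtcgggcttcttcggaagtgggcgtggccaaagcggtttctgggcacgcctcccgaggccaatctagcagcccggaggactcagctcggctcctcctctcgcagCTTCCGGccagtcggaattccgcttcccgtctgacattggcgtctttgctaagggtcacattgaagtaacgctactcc
Atp5e promoter, chr2:174464052-174464351, minus strand, ETS letters 102 bases before the start: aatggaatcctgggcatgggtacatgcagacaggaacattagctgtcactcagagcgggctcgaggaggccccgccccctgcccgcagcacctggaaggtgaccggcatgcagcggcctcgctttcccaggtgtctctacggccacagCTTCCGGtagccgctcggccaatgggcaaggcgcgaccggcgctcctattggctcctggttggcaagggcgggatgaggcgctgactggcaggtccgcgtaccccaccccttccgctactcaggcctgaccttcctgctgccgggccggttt

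Members with and without such letters had like differences between genotypes. In vehicle-treated mice the median log2 fold change was -0.073 over the 37 members with a motif and -0.079 over the 35 with none, and in memantine-treated mice it was -0.17 and -0.20.

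Comparison of vehicle-treated KO with WT mice (Veh-K/W) asked for the baseline effect of the deletion. No member passed the test, and most members had slightly lower values in KO-Veh than in WT-Veh mice. The median log2 fold change was -0.079 over the 91 members, with 69 of 91 below 0, against 0.0017 over the 17671 genes tested. The lowest adjusted p among members was 0.186 (limma), and 0.0283% of all genes tested were called. At an unadjusted p under 0.05, 16 of 91 members (17.6%) were lower and 0 were higher, where 7.68% of all genes were lower and 6.73% higher. The 3 KO values lay below the 3 WT values, with no overlap, for 16 members (17.6%), against 10.7% of all genes, and above them for 2, against 9.73% of all genes. The medians were -0.071 in complex I, -0.0024 in complex II, -0.084 in complex III, -0.11 in complex IV and -0.12 in complex V. The members at an unadjusted p under 0.05 numbered 5 of 46 in complex I, 0 of 4 in complex II, 3 of 9 in complex III, 2 of 15 in complex IV and 6 of 17 in complex V.

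In complex I, Ndufs5 (ENSMUSG00000028648; GRCm38 chromosome 4, 123712710 to 123718202, minus strand), an accessory subunit of the membrane arm, had values of 1643, 1777 and 1874 for WT-Veh, 1672, 1501 and 1803 for WT-Mem, 1497, 1512 and 1380.4 for KO-Veh and 1245, 1323 and 1589 for KO-Mem. All 3 KO-Veh mice lay below all 3 WT-Veh mice, at a log2 fold change of -0.27 ± 0.075 (estimate ± SE, as throughout) and an adjusted p of 0.186 in limma. Ndufc1, another membrane-arm accessory subunit, stood at 612, 639 and 791 for WT-Veh, 602, 564 and 729.9 for WT-Mem, 471, 591 and 505 for KO-Veh and 466, 424 and 541 for KO-Mem. Its KO-Veh values again lay wholly under the WT-Veh values (-0.38 ± 0.12, adjusted p 0.227 in limma). For the assembly factor Ndufaf2, which is no structural subunit, the log2 fold change was -0.35 ± 0.14, without overlap (adjusted p 0.287).

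In complex III, Uqcrb, the ubiquinone-binding subunit, had values of 1079, 1142 and 1339.9 for WT-Veh, 1008, 1018 and 1193 for WT-Mem, 918, 977 and 941 for KO-Veh and 933, 949.7 and 1021 for KO-Mem. The groups did not overlap in vehicle-treated mice (-0.32 ± 0.089, adjusted p 0.186 in limma). Uqcrh, the hinge protein at which cytochrome c docks, had values of 2257, 2415 and 2763 for WT-Veh, 2188, 2109 and 2526 for WT-Mem, 1935, 2163 and 2022 for KO-Veh and 1814, 1986 and 2087 for KO-Mem. KO-Veh mice were again all lower (-0.28 ± 0.084, adjusted p 0.213 in limma). Uqcr11, a small accessory subunit, had a log2 fold change of -0.28 ± 0.11 with overlapping groups (adjusted p 0.28). The large core proteins Uqcrc1 and Uqcrc2 had KO-Veh values wholly above the WT-Veh values, at 0.11 ± 0.059 and 0.11 ± 0.058 (unadjusted p 0.085 and 0.0757 in limma).

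In complex IV, Cox6b1, which faces the intermembrane space, had values of 3724, 3916 and 4859.7 for WT-Veh, 3690.0, 3821 and 4186 for WT-Mem, 3399, 3649 and 3320.3 for KO-Veh and 3088, 3192 and 3488 for KO-Mem. WT-Veh replicate 3 was the highest mouse, and all KO-Veh mice lay below all WT-Veh mice (-0.26 ± 0.095, adjusted p 0.274 in limma). Cox7c overlapped between groups (-0.27 ± 0.11, adjusted p 0.326), and the muscle isoform Cox6a2 did not (-0.29 ± 0.13, adjusted p 0.352). The abundant Cox4i1 was at 0.10 ± 0.073 with an interval of -0.065 to 0.26, so a decrease of the size seen for Cox6b1 lies outside it.

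In complex V, Atp5e, the epsilon subunit of the central stalk, had values of 1386, 1371 and 1573 for WT-Veh, 1314, 1356 and 1685 for WT-Mem, 1097, 1349 and 1038 for KO-Veh and 1008, 896 and 1227 for KO-Mem. KO-Veh mice lay below WT-Veh mice without overlap (-0.32 ± 0.10, adjusted p 0.238 in limma). Atp5s, known as coupling factor B, was at -0.43 ± 0.14, and the minor c-subunit gene Atp5g2 was at -0.37 ± 0.13 (adjusted p 0.244 and 0.25). The catalytic subunit Atp5b was at -0.079 ± 0.062 (interval -0.22 to 0.058).

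In complex II, 3 of the 4 genes lay within 0.07 of 0 in both genotype comparisons, and Sdhc was at -0.10 with vehicle. Sdha had values of 11496, 12099 and 10597 for WT-Veh, 11828, 11405 and 12158 for WT-Mem, 11939.9, 11874 and 11608 for KO-Veh and 11728, 11582 and 11747 for KO-Mem, and groups overlapped in both genotype comparisons (0.053 ± 0.064 with vehicle and -0.013 ± 0.052 with memantine). For the iron-sulfur subunit Sdhb the log2 fold changes were 0.0046 ± 0.059 and 0.017 ± 0.082, for the membrane anchor Sdhc -0.10 ± 0.084 and -0.049 ± 0.091, and for the anchor Sdhd -0.0094 ± 0.064 and -0.065 ± 0.066. The 95% intervals of the 4 genes in Veh-K/W together ran from -0.28 to 0.19.

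**Figure D2:**
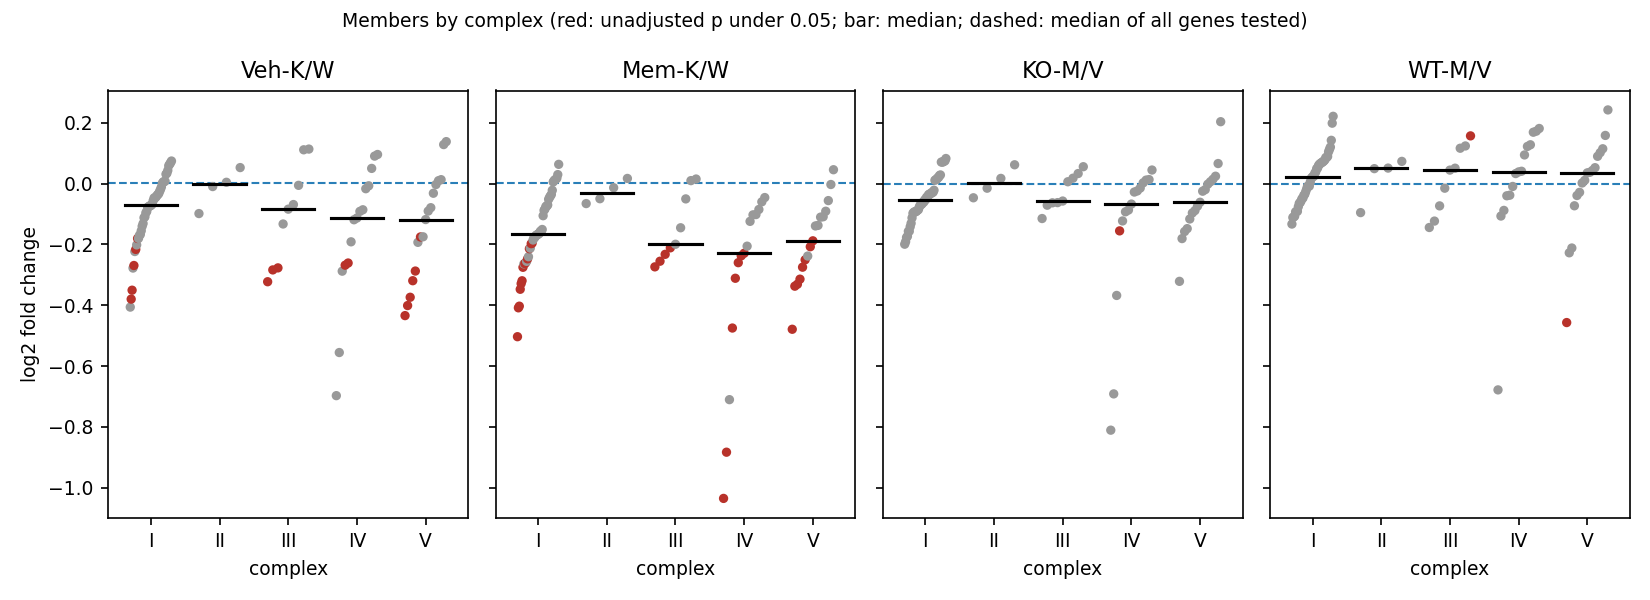
Log2 fold change of each member (points), by complex, in 4 comparisons of 3 against 3 mice; red points have an unadjusted p under 0.05 in limma, black bars are medians of a complex and the dashed line is the median of all genes tested. In Mem-K/W the medians of complexes I, III, IV and V lay between -0.23 and -0.17 and that of complex II at -0.031.

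Leaving out single mice moved the Veh-K/W counts. Members lower at an unadjusted p under 0.05 numbered 9 without WT-Veh replicate 3, 8 without KO-Veh replicate 1, 7 without KO-Veh replicate 3 and 25 without WT-Veh replicate 1, where 6.57%, 5.73%, 4.87% and 8.53% of all genes were lower. The member median stayed below 0 in each case, between -0.12 and -0.053. Complex medians moved more: complex I was at -0.12 and complex IV at -0.17 without WT-Veh replicate 1, complex I at -0.042 without WT-Veh replicate 2 and at -0.11 without KO-Veh replicate 2. Complex III was at -0.028 without KO-Veh replicate 3, at -0.049 without WT-Veh replicate 2, at -0.13 without WT-Veh replicate 3 and at -0.14 without KO-Veh replicate 2. With a trend on length and GC content removed, the medians were -0.036, 0.020, -0.076, -0.061 and -0.069 in complexes I to V.

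Comparison of memantine-treated KO with WT mice (Mem-K/W) asked how the genotype difference looked under the drug. No member was called here either, while the members' values were lower in KO-Mem mice by a larger margin. The median log2 fold change was -0.17 with 80 of 91 members below 0, against 0.0022 over all 17646 genes tested, and the lowest adjusted p was 0.104 (Atp5d, limma) where 0.068% of all genes were called. At an unadjusted p under 0.05, 32 of 91 members (35.2%) were lower and 0 higher, where 10.8% of all genes were lower and 10.1% higher. Values of KO-Mem mice lay wholly below those of WT-Mem mice for 34 members (37.4%), against 13.5% of all genes, and above them for 0, against 12.7% of all genes. By complex, 13 of 46, 0 of 4, 4 of 9, 7 of 15 and 8 of 17 members of complexes I to V were lower at that p, with medians of -0.17, -0.031, -0.20, -0.23 and -0.19.

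In complex I, Ndufs8, a core subunit that holds iron-sulfur clusters, had values of 2119, 2228 and 1871 for WT-Veh, 2065, 2200.0 and 2419.5 for WT-Mem, 1952, 2202 and 1865 for KO-Veh and 1669, 1689.8 and 1967 for KO-Mem. The KO-Mem mice were all below the WT-Mem mice (-0.33 ± 0.089, adjusted p 0.108 in limma), while KO-Veh and WT-Veh mice overlapped (-0.047 ± 0.087). Ndufa1, a small X-linked accessory subunit, had values of 1005, 996 and 851 for WT-Veh, 1085, 1016 and 1168 for WT-Mem, 994, 948 and 838 for KO-Veh and 779, 815 and 984 for KO-Mem. It too was lower in every KO-Mem mouse than in any WT-Mem mouse (-0.35 ± 0.10, adjusted p 0.125 in limma) and overlapped with vehicle (-0.036 ± 0.095). Ndufc1 was at -0.40 ± 0.13 (adjusted p 0.134), close to its value with vehicle.

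In complex III the smallest p-values were those of Uqcr11 (-0.27 ± 0.087, adjusted p 0.134 in limma), Uqcrq (-0.23 ± 0.091, adjusted p 0.186) and Uqcrh (-0.21 ± 0.088, adjusted p 0.21), and none of them overlapped between genotypes. The long subunits Uqcrc1 and Uqcrc2 and cytochrome c1 (Cyc1) were at 0.01, 0.015 and -0.05. Uqcrb overlapped between genotypes under memantine (-0.15 ± 0.091).

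In complex IV, Cox5a had values of 3873, 3801 and 2996 for WT-Veh, 3793, 3775 and 4493 for WT-Mem, 3521, 3685 and 3351 for KO-Veh and 3010.1, 3245 and 3449 for KO-Mem. WT-Veh replicate 3 was the lowest of the 12 mice and WT-Mem replicate 3 the highest, and KO-Mem mice lay below WT-Mem mice without overlap (-0.31 ± 0.085, adjusted p 0.109 in limma). Cox6b1 was at -0.26 ± 0.074 and Cox6a2 at -0.47 ± 0.15 (adjusted p 0.117 and 0.136). The largest differences were those of rare isoforms: Cox6b2 at -1.04 ± 0.37, Cox4i2 at -0.88 ± 0.33 and Cox7a1 at -0.71 ± 0.41. Values of Cox6b2 were 36.1, 30.2 and 57.1 for WT-Veh, 36.3, 38.1 and 48.4 for WT-Mem, 38.1, 38.4 and 28.3 for KO-Veh and 11.2, 20.1 and 31.7 for KO-Mem, a level of few reads. The abundant Cox8a (-0.12 ± 0.064), Cox6a1 (-0.10 ± 0.075) and Cox4i1 (-0.06 ± 0.073) differed less. Cox7a2 was at -0.21 ± 0.093 and Cox7a2l, counted here as no structural subunit, at -0.046 ± 0.072.

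In complex V, Atp5d, the delta subunit of the central stalk, had values of 5773, 6373 and 6027 for WT-Veh, 6003, 5716 and 6612 for WT-Mem, 5389, 5672 and 5039 for KO-Veh and 4827, 4922 and 5393 for KO-Mem. KO-Mem mice lay below WT-Mem mice (-0.27 ± 0.073, adjusted p 0.104 in limma), as did KO-Veh below WT-Veh mice (-0.18 ± 0.067, adjusted p 0.281). Atp5e was at -0.48 ± 0.13 and Atp5mpl, a small membrane-part subunit, at -0.34 ± 0.10 (adjusted p 0.108 and 0.13), both without overlap. The c-subunit genes Atp5g1, Atp5g2 and Atp5g3 were at -0.21 ± 0.087, -0.24 ± 0.28 and -0.091 ± 0.086. Atp5b values were 29328, 28709 and 29864 for WT-Veh, 29043, 30434 and 30752 for WT-Mem, 27983, 29016 and 26279 for KO-Veh and 28306, 26857 and 28443 for KO-Mem, lower in all KO-Mem than in all WT-Mem mice by a small margin (-0.11 ± 0.052, adjusted p 0.256 in limma).

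**Figure D3:**
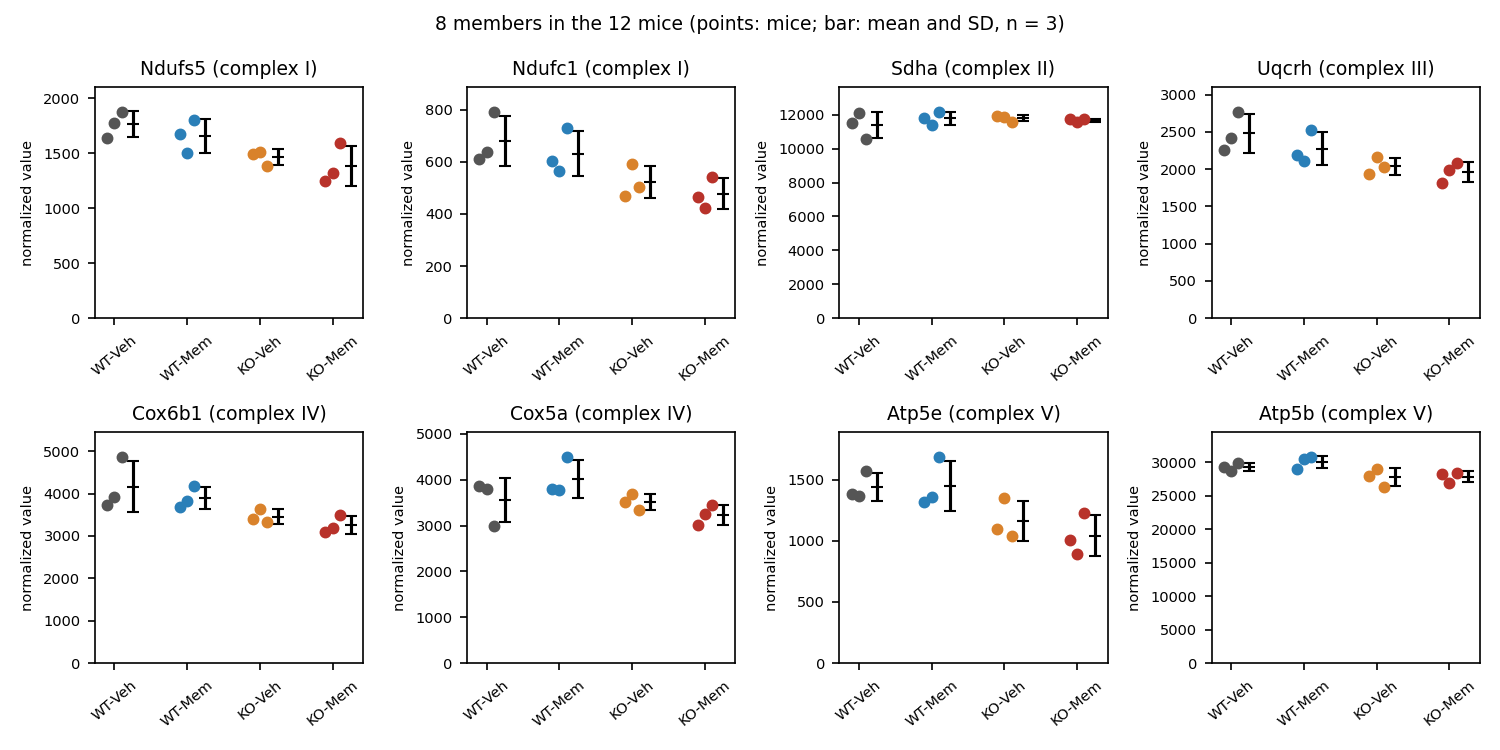
Normalized values of 8 members in each of the 12 mice (points) with the mean and SD of each group (bars, n = 3); the y axes start at 0. Ndufs5, Ndufc1, Uqcrh, Cox6b1 and Atp5e are lower in KO-Veh than in all WT-Veh mice, Cox5a is lower in KO-Mem than in all WT-Mem mice but overlaps with vehicle, and Sdha is level across groups.

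The Mem-K/W counts also depended on single mice. Without WT-Mem replicate 3, 13 members were lower at an unadjusted p under 0.05, where 9.56% of all genes were, and the median was -0.094, with -0.085, 0.0055, -0.11, -0.14 and -0.11 in complexes I to V. Without KO-Mem replicate 1 or 2 the counts were 16 and 15, where 6.48% and 7.33% of all genes were lower. Without KO-Mem replicate 3, whose member values were the highest of its group, 14 members were called, with 10.8% of all genes called. In 1 fit over the 12 mice, 1 member (Atp5d, adjusted p 0.0481) was called, with 3.6% of all genes.

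Core and accessory subunits had different medians, in a split made after the values were seen. Core is used for the catalytic or central nuclear subunits: the conserved core of complex I, with Ndufs1, Ndufs8 and Ndufv1 among them, all of complex II, Uqcrc1, Uqcrc2, Cyc1 and Uqcrfs1 of complex III, and the 5 F1 subunits of complex V. Over these 20 genes the median log2 fold change was -0.0074 in Veh-K/W and -0.029 in Mem-K/W, and over the 60 accessory subunits it was -0.094 and -0.20. In Mem-K/W, 11 of 20 core and 58 of 60 accessory subunits were below 0. At an unadjusted p under 0.05, 3 and 27 were lower, where 10.8% of all genes were. Without WT-Mem replicate 3 the median over all members was -0.094, and the split is not given without that mouse. Transcript length moved with the split, since the medians were 1572 bases for core and 652 bases for accessory subunits. After a trend on length and GC content was removed from each mouse, the core and accessory medians were 0.017 and -0.061 in Veh-K/W and -0.028 and -0.19 in Mem-K/W.

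The members' per-mouse medians were set beside those of other short genes. The median deviation of the members from their means over 12 mice was -0.0099, 0.080 and 0.050 (log2) in the WT-Veh mice, -0.0058, 0.0031 and 0.24 in the WT-Mem mice, -0.040, 0.0080 and -0.072 in the KO-Veh mice, and -0.12, -0.12 and -0.014 in the KO-Mem mice. WT-Mem replicate 3 was the highest, with 88 of 91 members above their mean, and KO-Mem replicates 1 and 2 the lowest. For protein-coding genes that are no members and have transcripts under 700 bases, the same medians were -0.0060, 0.080 and 0.15, then -0.030, -0.016 and 0.18, then -0.018, 6.99e-05 and -0.066, then -0.092, -0.085 and -0.017. Genes over 4000 bases were lowest in WT-Mem replicate 3, at -0.076, and in WT-Veh replicate 3, at -0.058.

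**Figure D4:**
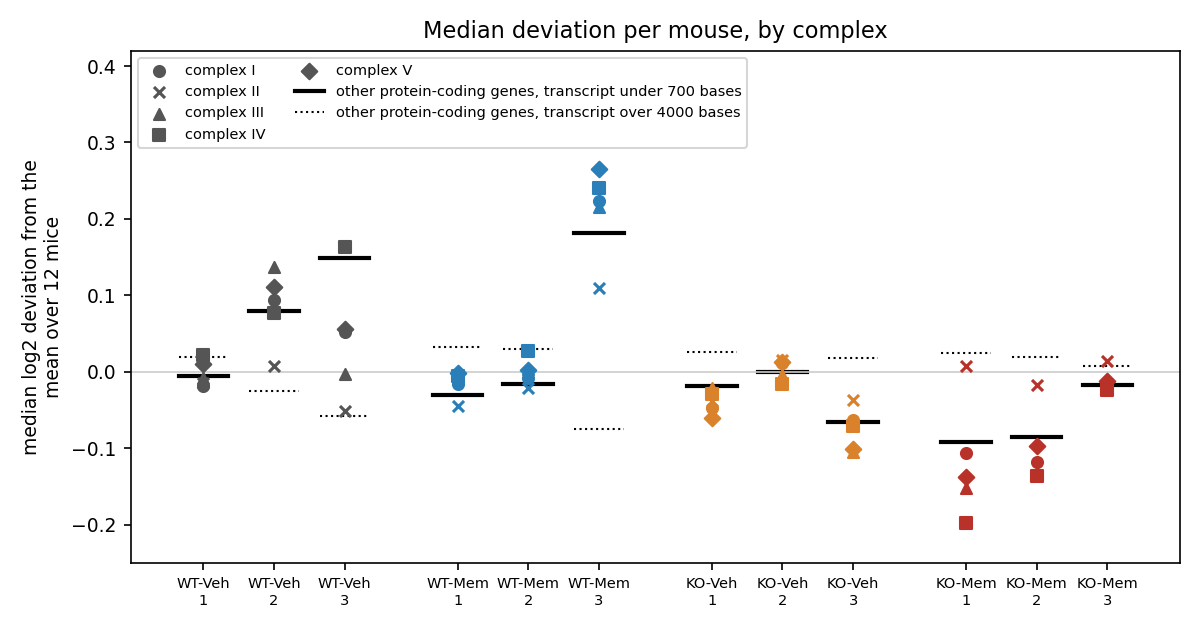
Median log2 deviation from the mean over 12 mice, per mouse, for the members of each complex (symbols, coloured by group) and for protein-coding genes outside the members with transcripts under 700 bases (thick lines) and over 4000 bases (dotted lines). WT-Mem replicate 3 lies highest for the members of every complex and for short genes, and lowest for long genes.

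The members were set beside other genes of like length, with no test. In Veh-K/W the median log2 fold change of transcripts under 700 bases was -0.14 over 37 members and -0.10 over 294 other protein-coding genes, and from 700 to 1000 bases it was -0.073 and -0.090. In Mem-K/W the medians were -0.23 and -0.10 under 700 bases, -0.17 and -0.11 from 700 to 1000 bases, and -0.083 and -0.037 from 1000 to 2000 bases. Without WT-Mem replicate 3 they were -0.14 and -0.034 under 700 bases. With the length and GC trend removed, the member median was -0.061 in Veh-K/W and -0.16 in Mem-K/W, with 15 and 40 members lower at an unadjusted p under 0.05, where 7.85% and 13.1% of all genes were. These trend-removed values include WT-Mem replicate 3 and are not given without it.

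**Figure D5:**
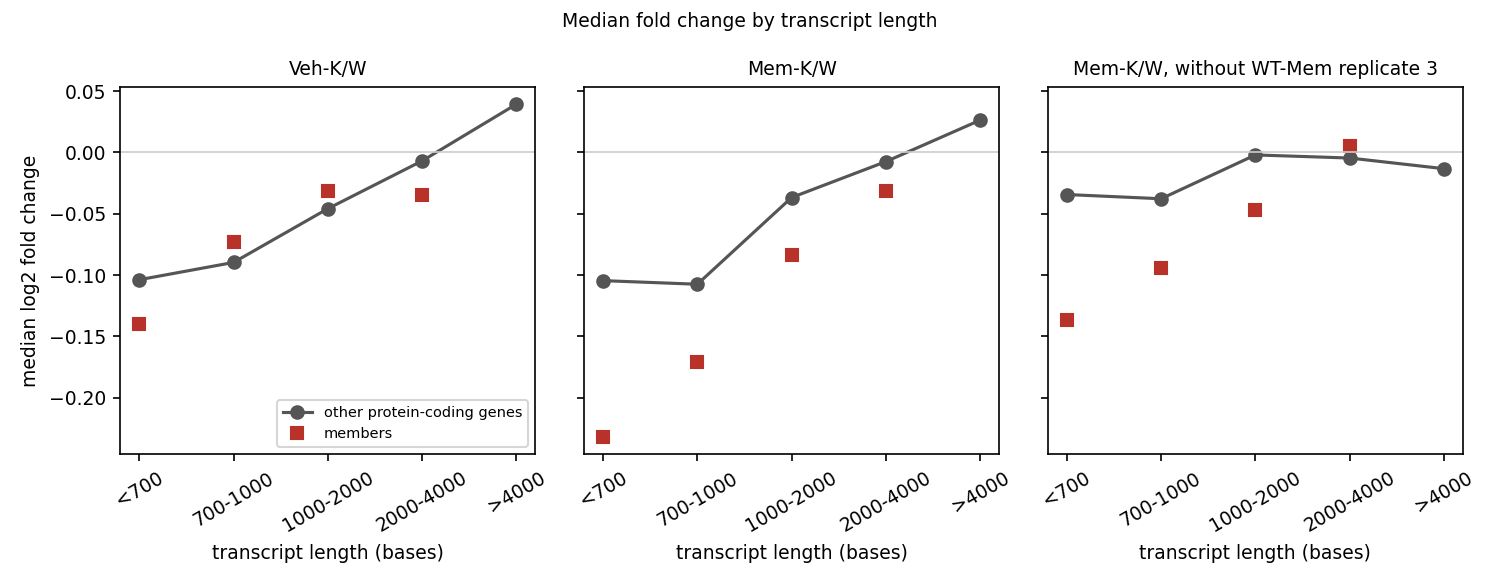
Median log2 fold change by transcript length for protein-coding genes outside the members (grey line) and for members (red squares; none are longer than 4000 bases) in Veh-K/W, in Mem-K/W and in Mem-K/W without WT-Mem replicate 3. Other genes under 1000 bases lie lower than longer ones in both comparisons with all mice, and in Mem-K/W with all mice the members lie below other genes in each length class they fill.

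Markers of several other cell types had lower values in KO mice. All 5 oligodendrocyte markers had lower values in KO-Veh mice and all 5 in KO-Mem mice, 5 and 4 of them at an unadjusted p under 0.05 and none called, and none was at 0 in any mouse. Their summed value ran from 286362 to 356087 in the WT-Veh, 256659.8 to 302204 in the WT-Mem, 248730.3 to 266056 in the KO-Veh and 205765 to 245518 in the KO-Mem mice. The 5 blood markers were lower in both comparisons too, 4 of them at an unadjusted p under 0.05 in each, with sums of 19447 to 26320, 13301 to 14809, 7567 to 18764 and 5626 to 12528 in the same order. The 5 microglial markers were lower in both, 1 and 4 at that p. Of 4 endothelial markers, 4 were lower in Veh-K/W (median -0.28, 3 at that p) and 3 in Mem-K/W (none at that p), and their sums were 5369 to 5885, 5021 to 5432, 4500.4 to 4873 and 4726 to 5345. Of 5 astrocyte markers, 4 were lower in each, 1 and 3 at that p, with sums of 31908 to 35234, 31743 to 32687, 31990.6 to 32237 and 30356 to 31259. Of 4 choroid plexus markers, 3 were lower in each, 0 and 1 at that p. Their sums were 12406 to 14530, 12833 to 14394, 11026 to 15316 and 7135 to 13896. At that p, 7.68% of all genes were lower in Veh-K/W and 10.8% in Mem-K/W. Sums of the 5 neuronal markers overlapped between all groups, from 141206 to 157638. Of 6 inhibitory neuron markers, 2 were lower in Veh-K/W and 4 in Mem-K/W. At that p, 0 and 1 of them were lower and 2 and 2 higher. The part of these cell types in the members' differences was not tested, and in bulk tissue fewer cells of a type and less RNA per cell cannot be told apart.

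Memantine itself gave no called member in either genotype. In KO mice (KO-M/V), the median log2 fold change was -0.052 with 63 of 91 members below 0, and it ran from -0.021 without KO-Mem replicate 1 to -0.080 without KO-Mem replicate 3. One member, Cox7b, was lower and 0 were higher at an unadjusted p under 0.05, where 4.54% of all genes were lower and 4.34% higher and 0% were called. Cox7b, a small X-linked subunit of complex IV, had values of 3171, 3122 and 2674 for WT-Veh, 3115, 3256 and 3739 for WT-Mem, 3223, 3271 and 3033 for KO-Veh and 2689.6, 2760.1 and 3118 for KO-Mem. Its KO-Mem and KO-Veh values overlapped (-0.16 ± 0.069, adjusted p 0.56 in limma). The members with the smallest p of the other complexes were Ndufs8 (-0.18 ± 0.087), Sdhb (0.062 ± 0.049), Uqcrq (-0.11 ± 0.065) and Atp5k (-0.18 ± 0.089). Without KO-Mem replicate 3, 13 members were lower at an unadjusted p under 0.05, where 9.57% of all genes were. All 5 oligodendrocyte markers (4 at that p), all 5 microglial (1) and all 5 blood markers (1) were also lower in KO-Mem than in KO-Veh mice. So were 4 of 5 astrocyte (2) and 3 of 4 choroid plexus markers (1), while 2 of 4 endothelial markers were higher (1). The part of these cell types was not tested.

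In WT mice (WT-M/V), the median was 0.035 with 54 of 91 members above 0, and 0.0114% of all genes were called. One member was lower and 1 higher at an unadjusted p under 0.05, where 2.47% of all genes were lower and 1.5% higher. The higher one was Uqcrc1, with values of 8092, 8295 and 7687 for WT-Veh, 8615, 8627 and 9628 for WT-Mem, 8680.1, 8917 and 8406 for KO-Veh and 9339, 8824 and 8868 for KO-Mem. Its 3 WT-Mem values lay above its WT-Veh values (0.16 ± 0.069, adjusted p 0.978 in limma). The lower one was Atp5g2 (-0.46 ± 0.17, adjusted p 0.978), with overlapping values of 295, 293 and 348 for WT-Veh and 196, 199 and 297 for WT-Mem. The smallest p of the other complexes belonged to Ndufa1 (0.20 ± 0.093), Sdhd (0.073 ± 0.071) and Cox7a1 (-0.68 ± 0.33). The median was -0.045 without WT-Mem replicate 3. In WT mice too, all 5 blood markers were lower with memantine, 4 of them at an unadjusted p under 0.05 (limma). All 5 oligodendrocyte markers (0 at that p) and 4 of 5 microglial markers (1 at that p) were also lower. So were 4 of 5 astrocyte (1), 3 of 4 choroid plexus (1) and all 4 endothelial markers (0). The part of these cell types was not tested.

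The difference between the genotype effects under both treatments was tested as an interaction over all 12 mice and reached no call for any gene. Its median over members was -0.058, with 68 of 91 below 0 and a lowest adjusted p of 0.947 (limma). The median was -0.0097 without WT-Mem replicate 3 and -0.11 without KO-Mem replicate 3. At an unadjusted p under 0.05, 3 members were lower and 0 higher, where 2.34% and 2.41% of all genes were and 0% were called. The 3 were Cox7b (-0.33 ± 0.12), Cox5a (-0.30 ± 0.14) and Ndufs8 (-0.28 ± 0.13). The smallest p of complexes II, III and V belonged to Sdha (-0.066 ± 0.078), Uqcrb (0.18 ± 0.13) and Atp5s (0.43 ± 0.23). The larger Mem-K/W than Veh-K/W median is therefore not shown to be a difference between treatments.

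Across treatment and genotype, KO-Mem mice were compared with WT-Veh mice (KO-M/WT-V), which asks whether treated mutants resemble untreated WT mice. The member median was -0.13 and no member was called where 3.37% of all genes were, with a lowest adjusted p of 0.0535 for Atp5e (-0.48 ± 0.12, limma). At an unadjusted p under 0.05, 29 members (31.9%) were lower and 2 higher, where 13.2% of all genes were lower and 12.6% higher. The 2 higher were Uqcrc1 (0.17 ± 0.062) and Atp5a1, the alpha subunit of the ATP synthase (0.20 ± 0.086). In this comparison calls depended on the fit, with 11 members called in 1 fit over the 12 mice and 15 without KO-Mem replicate 3, where 11.7% and 14.1% of all genes were called. WT-Mem against KO-Veh mice (WT-M/KO-V) gave a median of 0.11 with 86 of 91 members above 0 and none called, where 0.0227% of all genes were. Here 12 members (13.2%) were higher and 0 lower at an unadjusted p under 0.05, where 4.71% and 4.23% of all genes were. Without WT-Mem replicate 3 the median was 0.039 and 1 member was higher at that p, where 5.07% of all genes were, and without KO-Veh replicate 1 or 3 the counts were 4 and 2, where 3.56% and 2.56% of all genes were. In KO-M/WT-V, 4 of 5 oligodendrocyte and 4 of 5 blood markers were called lower. The astrocyte marker Aqp4 (-0.88 ± 0.12, adjusted p 0.0243 in limma) and the inhibitory neuron marker Pvalb (-0.61 ± 0.13, adjusted p 0.0403) were called lower too. These comparisons share mice with those above, so their values are not separate evidence.

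The mitochondrially encoded subunits also had medians below 0 in both genotype comparisons. Of 13 genes, 11 were below 0 in Veh-K/W (median -0.29) and 11 in Mem-K/W (median -0.14). At an unadjusted p under 0.05, 6 and 5 of them were lower, where 7.68% and 10.8% of all genes were, and none was called. In KO-M/WT-V, mt-Nd2 (-0.59 ± 0.12, adjusted p 0.0359) and mt-Atp6 (-0.87 ± 0.20, adjusted p 0.0472 in limma) were called lower, where 3.37% of all genes were called. WT-Veh replicate 3 was the highest mouse, at a median deviation of 0.42, while WT-Mem replicate 3 was at 0.014. The smallest p belonged to mt-Nd2 in Veh-K/W (-0.54 ± 0.13, adjusted p 0.157 in limma) and to mt-Atp6 in Mem-K/W (-0.92 ± 0.15, adjusted p 0.0817). The second smallest were those of mt-Cytb in Veh-K/W (-0.30 ± 0.099) and of mt-Nd2 in Mem-K/W (-0.25 ± 0.077). The libraries were selected for poly-A, and its part in these values was not tested. Cycs, the somatic cytochrome c that carries electrons from complex III to IV, was at -0.26 ± 0.083 in Veh-K/W and -0.29 ± 0.084 in Mem-K/W (adjusted p 0.235 and 0.117).

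No assembly factor was called in either genotype comparison, and Coa3 was called lower in KO-M/WT-V (-0.47 ± 0.11, adjusted p 0.046 in limma). In Veh-K/W the medians were -0.10 over 17 factors of complex I (8 of them the Ndufaf members), -0.058 over 4 of complex II, -0.18 over 6 of complex III, -0.070 over 21 of complex IV and -0.11 over 5 of complex V, and in Mem-K/W they were -0.15, -0.078, -0.058, -0.092 and -0.077. At an unadjusted p under 0.05, 1, 1, 2, 1 and 1 of them were lower in Veh-K/W, where 7.68% of all genes were. In Mem-K/W 2, 0, 2, 6 and 1 were lower, where 10.8% of all genes were. Those higher at that p numbered 1, 0, 0, 0 and 0 in Veh-K/W, where 6.73% of all genes were higher. In Mem-K/W they numbered 1, 1, 0, 1 and 0, where 10.1% of all genes were higher. The smallest p-values outside the members in Veh-K/W belonged to Nubpl (0.32 ± 0.14) and Timmdc1 (-0.22 ± 0.11) of complex I, Sdhaf2 (-0.21 ± 0.08) and Sdhaf4 (-0.12 ± 0.13) of complex II, Uqcc2 (-0.36 ± 0.15) and Bcs1l (-0.22 ± 0.094) of complex III, Coa3 (-0.21 ± 0.088) and Cox16 (-0.22 ± 0.10) of complex IV and Fmc1 (-0.35 ± 0.14) and Tmem242 (-0.18 ± 0.10) of complex V. In Mem-K/W they belonged to Timmdc1 (-0.40 ± 0.12) and Foxred1 (0.22 ± 0.083), Sdhaf1 (0.27 ± 0.12) and Sdhaf2 (-0.16 ± 0.091), Bcs1l (-0.55 ± 0.20) and Lyrm7 (-0.36 ± 0.15), Coa6 (-0.54 ± 0.15) and Cox19 (0.39 ± 0.12) and Tmem70 (-0.32 ± 0.094) and Fmc1 (-0.38 ± 0.18) in the same order of complexes.

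Regulators of mitochondrial biogenesis had medians of -0.018 and -0.076 over 14 genes with vehicle and with memantine, with 9 and 10 of them below 0. At an unadjusted p under 0.05, 1 was lower and 1 higher in each comparison. Ppargc1a, the coactivator PGC-1alpha, was at 0.15 ± 0.068 and 0.26 ± 0.091 (adjusted p 0.349 and 0.152 in limma), opposite in sign to most members. Tfam, which packages and transcribes mitochondrial DNA, was at -0.011 ± 0.11 and -0.23 ± 0.10. Of the factors whose motifs were searched, Nrf1 was at -0.0095 ± 0.12 and -0.071 ± 0.093 and Gabpa at -0.14 ± 0.085 and -0.14 ± 0.097. Values of Yy1 are not reported here. The smallest p in Veh-K/W belonged to Pprc1 (-0.36 ± 0.10) and Polrmt (0.38 ± 0.11), and in Mem-K/W to Ppargc1a and Tfb1m (-0.54 ± 0.19).

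Other mitochondrial and short-gene families had medians closer to 0 than the members in Mem-K/W with all mice, and none had a called gene in either genotype comparison. Without WT-Mem replicate 3 the member median was -0.094, and the medians of these families without that mouse are not given here. In Veh-K/W the member median of -0.079 was close to those of both ribosomal families. In KO-M/WT-V, Dlat (0.34 ± 0.073), Timm44 (0.53 ± 0.11) and Rpl5 (0.44 ± 0.095) were called higher and Mrps25 (-0.60 ± 0.13) and Rpl12 (-0.61 ± 0.14) lower, with adjusted p-values between 0.0359 and 0.0453 in limma. Genes named for a list are among those with its smallest p-values. Citric acid cycle and pyruvate dehydrogenase genes had medians of -0.0034 and -0.059 over 16 genes with vehicle and with memantine. The named ones were Dlat (0.19 ± 0.072) and Mdh2 (0.13 ± 0.076) with vehicle and Ogdh (-0.19 ± 0.068) and Dlat (0.16 ± 0.059) with memantine. Import genes had medians of -0.073 and -0.11 over 15 genes, with Tomm20 (0.29 ± 0.082) and Timm44 (0.25 ± 0.079) and then Timm44 (0.48 ± 0.097) and Tomm6 (-0.28 ± 0.096). Mitochondrial ribosomal proteins were at -0.080 and -0.10 over 78 genes, with 11 and 13 lower and 1 and 2 higher at an unadjusted p under 0.05. At that p, 7.68% and 10.8% of all genes were lower and 6.73% and 10.1% higher. Here the named ones were Mrps21 (-0.45 ± 0.11) and Mrpl12 (-0.34 ± 0.09) and then Mrps25 (-0.70 ± 0.13) and Mrps36 (-0.54 ± 0.14). Cytosolic ribosomal proteins, which are short like the members, were at -0.082 and -0.081 over 78 genes, with 11 and 8 lower and 1 and 1 higher at that p. Rpl5 was at 0.37 ± 0.091 with vehicle and Rpl27a at -0.24 ± 0.082 with memantine. Proteasome subunits were at -0.0049 and 0.011 over 37 genes, with 2 and 0 lower and 1 and 0 higher at that p. Named for them were Psmb2 (0.16 ± 0.066) and Psmb10 (-0.20 ± 0.085) and then Psmd6 (0.18 ± 0.083) and Psmd13 (0.16 ± 0.087).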

How the data were processed

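Brains of 12 mice in 4 groups of 3 were profiled by paired-end poly-A RNA-Seq, and groups were taken from the sample labels. Per the submitters' processing notes and the methods, the authors quantified reads with Salmon 1.1.0 on GRCm38 with GC bias correction and combined transcripts to genes with tximport. The authors deposited DESeq2-normalized estimated counts, treated here as a signal on a linear scale that no longer holds whole reads, so no count test was run. The notes say that the authors used DESeq2 1.26.0 with R 3.6.2. True depths are not given in the sources used here.

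Values were tested as log2(value + 1), so fold changes of rare genes are understated, with limma 3.58.1 (R 4.3.3; lmFit, then eBayes with a variance trend) over all genes that averaged 10 or more in the mice of each fit. Each comparison used its own 6 mice and the interaction all 12. P-values are two-sided, were adjusted by Benjamini-Hochberg over all genes tested, and called below 0.05. The code was tested on simulated data. With mice as replicates, p-values weigh a group difference against the spread between these mice, with each variance moderated by eBayes over all genes tested. Gene types, lengths and coordinates came from the GRCm38 annotation, with the length of the shortest of the best-supported transcripts.

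Members and gene lists were chosen with earlier results of these data known. Named members were the smallest p-values of each complex (3 in both genotype comparisons, 2 for complex II, and 1 in the treatment comparisons and the interaction), the highest and lowest level per kb of each complex, isoform families and complex II. Other members were named after their values were seen, as were the core and accessory split, the counts at an unadjusted p and the length classes without WT-Mem replicate 3. Other pseudocounts, filters, scalings, fits and left-out mice were tried as alternatives. A few genes that these rules would name are not reported here.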

Additional observations from a re-analysis of the deposited data

How the results depend on the processing

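Of 262 alternative values of the number of members called and the member median, 255 moved by less than the spread between mice or 1.5 times, and the other 7 are numbers of members called. Of 917 alternative values of complex medians and of counts at an unadjusted p, 75 moved by more, most of them counts. That spread includes WT-Mem replicate 3, so shifts of the member median on leaving this mouse out counted as unmoved. The member median then went from -0.17 to -0.094 in Mem-K/W, from -0.058 to -0.0097 in the interaction and from 0.035 to -0.045 in WT-M/V. Counts that stayed at 0 were unmoved by this rule too. In Mem-K/W, 1 member was called in 1 fit over the 12 mice, and leaving out single mice gave 0 to 14, the latter without KO-Mem replicate 3. In KO-M/WT-V, 11 were called in 1 fit over the 12 mice, 1 when genes averaging under 50 were left out (4.55% of all genes called), 9 with the replicate number as a block (5.66%) and 8 with that block and the length and GC trend removed (4.86%), and leaving out single mice gave 0 to 15, the latter without KO-Mem replicate 3. Replicate numbers showed no steady pairing of the mice, since deviations of same-numbered mice correlated between -0.27 and 0.19, so the block results stand here alone. A shared litter, cage or batch was not tested. Without a variance trend, 10 and 20 members were lower at an unadjusted p under 0.05 with vehicle (KO against WT) and with memantine, where 6.42% and 8.87% of all genes were. The filter at 50 also left out 3 or 4 members, Cox7a1 and Cox4i2 among them, and the complex IV median in Mem-K/W was then -0.16. The cause of these shifts was not tested. With 3 mice a group, differences as small as those of most members are hard to call, and low values limit the rare isoforms.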
